A study of Homo sapiens with 6 samples.

Results

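The small subunit of the ribosome is built by a large set of assembly factors, and 42 genes encoding such factors were followed here in gastric cancer cells depleted of the splicing factor SRSF2. They were taken by name, as members of the small-subunit processome or of the later 40S maturation machinery, from a table of 56303 gene entries in which all 42 were found. The RNA came from AGS, an established cell line from a human gastric adenocarcinoma, although the tissue label reads gastric cancer tissue. Of 6 libraries, 3 carry the genotype label SRSF2 knockdown and titles with the prefix usual for small interfering RNA (siRNA), and are called siSRSF2 here, while the other 3 carry the label WT. Both groups were grown in DMEM/F12 medium with fetal bovine serum. No label states a control siRNA for WT, the siRNA sequence, the time of treatment or separate cultures for the replicates. The p-values therefore describe variation among these libraries alone, and that variation may be technical. Values written with ± are means with SD over the 3 libraries of a group.

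Ribosome production starts in the nucleolus, where RNA polymerase I transcribes a long precursor that holds the 18S rRNA of the small subunit. The UTP-A and UTP-B complexes and the U3 small nucleolar ribonucleoprotein (snoRNP) gather on the 5′ end of this precursor and form the small-subunit processome, within which the precursor is folded, modified and cleaved. The particle then sheds most of these proteins, and a smaller set of factors accompanies the pre-40S subunit to the cytoplasm, where the endonuclease NOB1 makes the last cut of 18S rRNA. Genes of this machinery are widely known as targets of MYC, which binds the E-box sequence CACGTG, and their levels are known to follow cell growth.

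Because the members' mRNAs moved together, their promoters were examined for shared letters. RefSeq promoters (GRCh38.p14, 250 bases before to 50 bases after the annotated start) were matched for 37 of 42 members, and 5 had no entry (DCAF13, MPHOSPH10, NOP58, RRP12 and UTP23). The E-box CACGTG, which reads the same on both strands, occurred in 16 of 37 members (43.2%), against 8.77% of 27305 genes in the promoter table and 10.9% of its protein-coding genes. Of the 18 E-boxes in these promoters, 14 began within 50 bases of the start site. The promoters of RRP9 and PNO1, the members whose mRNAs fell most, are shown whole, with the E-box in capitals. RRP9 lies on the minus strand (chr3:51941855-51942154) and PNO1 on the plus strand (chr2:68157638-68157937).
RRP9: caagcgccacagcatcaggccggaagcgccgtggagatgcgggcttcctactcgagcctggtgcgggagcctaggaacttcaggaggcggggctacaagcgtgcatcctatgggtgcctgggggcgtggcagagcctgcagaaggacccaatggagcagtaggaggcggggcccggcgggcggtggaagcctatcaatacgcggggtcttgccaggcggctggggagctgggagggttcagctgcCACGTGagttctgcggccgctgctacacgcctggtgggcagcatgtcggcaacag
PNO1: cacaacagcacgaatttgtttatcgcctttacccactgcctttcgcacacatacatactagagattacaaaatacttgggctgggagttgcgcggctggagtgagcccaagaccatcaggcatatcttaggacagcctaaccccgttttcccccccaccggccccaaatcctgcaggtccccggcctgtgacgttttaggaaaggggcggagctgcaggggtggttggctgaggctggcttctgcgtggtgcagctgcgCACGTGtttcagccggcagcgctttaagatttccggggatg
The E-box of RRP9 begins 5 bases before the start and that of PNO1 at base 10 of the transcript. Among the 12 members that fell most, 5 others held an E-box, and 30 bases around each are given to show the letters beside it.
LTV1: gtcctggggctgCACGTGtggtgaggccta
UTP20: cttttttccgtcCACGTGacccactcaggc
NOL6: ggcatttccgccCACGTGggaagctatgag
WDR43: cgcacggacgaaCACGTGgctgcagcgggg
BYSL: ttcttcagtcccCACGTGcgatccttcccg
These windows lie at chr6:143843354-143843383, chr12:101280083-101280112, chr9:33473894-33473923, chr2:28894658-28894687 and chr6:41921515-41921544, on the plus strand except NOL6. In UTP20 the E-box begins 10 bases before the start, and in the other 4 it lies in the first transcribed bases, from base 4 in WDR43 to base 29 in LTV1 and BYSL.

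Members with an E-box had a median log2 fold change of -1.24 and members without one of -1.01, and both sets spanned most of the list's range (-2.18 to -0.17 and -1.71 to -0.29). FBL, among the least changed, also held an E-box, at base 7. A match is a description of the letters only, and binding was not measured. Of 3 other motifs, searched on both strands, the ETS core CCGGAAG occurred in 16 of 37 members (43.2%), against 12.2% of all genes in the promoter table and 16.5% of its protein-coding genes. The YY1 core AAGATGG occurred in 8 members (21.6%), against 7.11% of all and 7.90% of protein-coding genes. The NRF1 core GCATGCG occurred in 2 members (5.41%), above the 4.74% of all genes and below the 6.07% of protein-coding genes. Promoters of 51 large-subunit assembly genes held the E-box in 33.3%, the ETS core in 52.9%, the YY1 core in 13.7% and the NRF1 core in 7.84%. Promoters of 26 genes of 40S ribosomal proteins held the E-box in 7.69%, the ETS core in 34.6%, the YY1 core in 19.2% and the NRF1 core in 11.5%. With or without a promoter entry, the 33 genes of 40S ribosomal proteins had a median log2 fold change of -0.10. The 59 large-subunit assembly genes had one of -1.0. Whether any motif goes with the change was not tested. MYC itself fell from 346 ± 5.7 to 226 ± 2.89 CPM (log2 fold change -0.62 with an SE of 0.043, adjusted p = 1.48e-12 in edgeR), and its part in the members' change was not tested.

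Total counts ranged from 47518943 to 50021152 in WT and from 26610937 to 36651623 in siSRSF2 libraries, so a count of 3 equals between 0.060 and 0.113 counts per 1e+06 of the library total. Levels in counts per 1e+06 (CPM) use library sizes scaled by TMM. The siRNA target SRSF2 stood at 44.5, 46.4 and 44.1 CPM in WT and at 21.6, 21.8 and 24.9 CPM in siSRSF2 libraries (log2 fold change -0.98 with an SE of 0.064, adjusted p = 4.39e-13 in edgeR), although 36.7% of its exon bases are shared with MFSD11 on the opposite strand. Of 7 epithelial markers, 6 passed the low-count filter, 1 was higher and 1 lower. KRT8 fell from 3236 ± 156 to 2776 ± 101 CPM and CLDN4 rose from 1.45 ± 0.335 to 4.99 ± 0.974 CPM (log2 fold change 1.79, edgeR adjusted p = 4.85e-09). KRT18 (1099 ± 53.5 against 1058 ± 73 CPM), EPCAM (5.005 ± 0.5 against 5.8 ± 0.436), KRT19 (3.21 ± 0.312 against 3.18 ± 0.302) and CDH1 (0.219 ± 0.0573 against 0.276 ± 0.148) did not pass. CDH17 was not tested and had at most 0.0613 counts per 1e+06 of the library total. Of 11 leukocyte, fibroblast and endothelial markers, 8 passed the filter, 4 were higher and 2 lower, and the sum of those 8 was 48.8 to 50.3 CPM in WT and 81.7 to 87.7 CPM in siSRSF2 libraries. The leukocyte genes CD3E and PTPRC, not tested, reached at most 0.0546 and 0.273 counts per 1e+06 of the library total. The part of either marker list in the members' change was not tested.

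Nearly all small-subunit assembly factor mRNAs were lower after SRSF2 depletion. Of 42 members, 41 were lower, none was higher, and only UTP23 did not pass the test (edgeR quasi-likelihood test, Benjamini-Hochberg adjusted p under 0.05 over 23689 genes). Over all tested genes, 29.0% were called lower, 30.1% higher and 59.1% either way. Among the 6845 genes with mean CPM within the members' range, 54.1% were called lower, 27.9% higher and 82.0% either way. The median log2 fold change of the members was -1.10, against 0.02 for all tested genes and -0.20 for genes of the members' expression range. A fall of more than 2-fold was called in 25 of 42 members, against 5.91% of all tested genes and 7.14% of genes in the expression range. No test of the list as a whole was made, since its members were chosen with results of these data known.

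The members' summed level fell from 9026 ± 92.4 to 4288 ± 83.5 CPM (SD, n = 3 per group). They took 0.867%, 0.858% and 0.862% of all counts in the WT libraries and 0.448%, 0.447% and 0.449% in the siSRSF2 libraries. In 40 members every siSRSF2 library lay below every WT library, and FBL and UTP23 were the exceptions. The same separation was seen in 31.2% of all tested genes and in 55.2% of genes in the expression range. All members passed the low-count filter, with counts between 319 and 36268 per library. The median coefficient of variation among replicates was 2.92% in WT and 4.33% in siSRSF2 libraries, small beside a median change of more than 2-fold. The members lie on 19 chromosomes, with at most 6 on any one. In these bulk libraries, fewer cells of a type and less RNA per cell cannot be told apart.

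**Figure D1:**
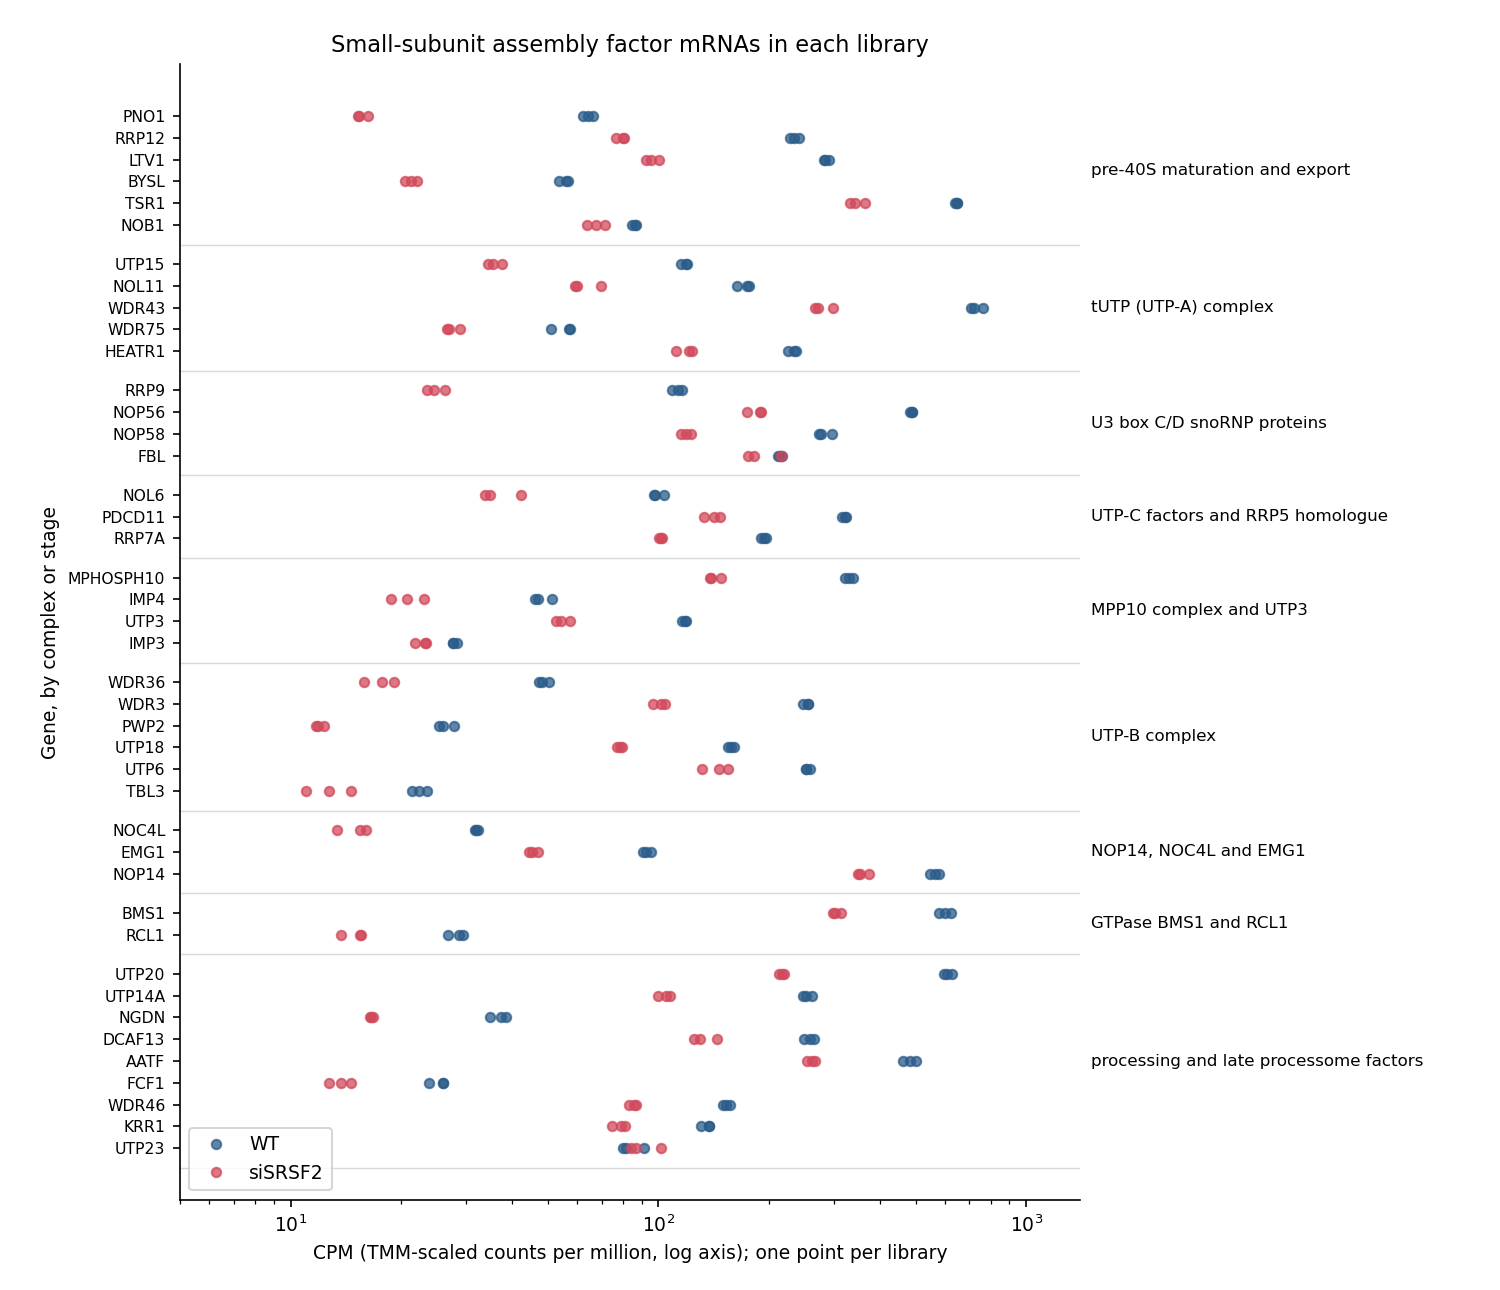
CPM of each small-subunit assembly factor mRNA in every library (log axis), 1 point per library, grouped by complex or stage; blue is WT and red is siSRSF2. The red points lie left of the blue ones in 40 of 42 genes, and the groups overlap in FBL and UTP23.

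The UTP-A complex (also called t-UTP) is the first to bind the nascent precursor and is known to be needed for its transcription as well. All 5 UTP-A members fell, with a median log2 fold change of -1.39, and their sum fell from 1306 ± 16.9 to 523 ± 6.05 CPM. Beside this count and those of the role groups below, 29.0% of all tested genes were called lower, and 54.1% in the members' expression range. UTP15, a WD-repeat subunit, measured 119, 119 and 115 CPM in WT and 34.3, 35.5 and 37.6 CPM in siSRSF2 libraries (log2 fold change -1.71 with an SE of 0.051, adjusted p = 8.09e-20 in edgeR). NOL11, needed for transcription and processing of the precursor, measured 164, 177 and 174 against 59.3, 69.6 and 59.9 CPM (log2 fold change -1.44, SE 0.056). WDR43 was the most abundant member of the complex, at 761, 706 and 723 CPM in WT and 298, 266 and 271 CPM in siSRSF2 libraries (log2 fold change -1.39). In none of these 3 genes did the groups come near each other. WDR75 fell by 1.01 on the log2 scale, and HEATR1, a long helical-repeat scaffold protein, changed least in the complex, from 225, 237 and 234 to 112, 123 and 121 CPM (-0.96). HEATR1 shares 23.2% of its exon bases with other genes, mostly LGALS8 on the opposite strand (log2 fold change -0.53).

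The UTP-B complex also binds the 5′ end of the precursor early, beside the U3 snoRNP. All 6 of its members fell (median log2 fold change -1.07). WDR36, a WD-repeat subunit, fell most, from 47.4, 50.5 and 48.3 CPM to 15.8, 17.7 and 19.1 CPM (log2 fold change -1.47 with an SE of 0.067, adjusted p = 3.55e-16 in edgeR). WDR3 followed (log2 fold change -1.32), then PWP2 (-1.13) and UTP18 (-1.0). UTP6, a helical-repeat protein, fell by 0.82 on the log2 scale. TBL3 measured 22.3, 23.5 and 21.3 CPM in WT and 14.6, 11 and 12.7 CPM in siSRSF2 libraries (log2 fold change -0.82, SE 0.087). The falls within this complex thus ran from 1.76-fold to 2.77-fold, and the 2 groups of libraries were separate in each of the 6 genes. The same separation, with siSRSF2 below WT, was seen in 31.2% of all tested genes and in 55.2% of genes in the members' expression range.

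The 4 U3 snoRNP protein genes ranged from the most changed member of the list to the least changed one that passed the test. U3 guides the early cleavages of the precursor, and its RNA is bound by the box C/D core proteins NOP56, NOP58 and the methyltransferase fibrillarin (FBL), and by the U3-specific protein RRP9. RRP9 changed more than any other member, from 113, 109 and 116 CPM in WT to 23.5, 24.5 and 26.3 CPM in siSRSF2 libraries, a 4.54-fold fall (log2 fold change -2.18 with an SE of 0.055, adjusted p = 3.47e-21 in edgeR). Among all tested genes, 83 (0.35%) were called lower with a larger fall than RRP9. NOP56 measured 488, 488 and 484 CPM against 190.2, 174 and 188 CPM (-1.4, SE 0.045), and NOP58 measured 297, 277 and 273 CPM against 123, 119 and 115 CPM (-1.25, SE 0.047).

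FBL differed little between the groups. It measured 212, 214 and 217 CPM in WT and 216, 175 and 182 CPM in siSRSF2 libraries, and siSRSF2 replicate 1 lay within the WT range. Its call (log2 fold change -0.17, SE 0.060, edgeR adjusted p = 0.0226) was lost without siSRSF2 replicate 2 (adjusted p = 0.0935 in edgeR), without siSRSF2 replicate 3 (0.0704), without WT replicate 3 (0.0617), with library totals as the scaling (0.546), when only genes averaging 1 CPM or more were fitted (0.0983) and against a change of 1.2-fold (0.904). Per kilobase of exon, FBL stood at 1.35, 1.43 and 1.35 times the level of RRP9 in WT libraries and at 6.64, 5.17 and 5.02 times in siSRSF2 libraries. This pair was chosen as the least and most changed of the 4 genes, so the ratio is a description.

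**Figure D2:**
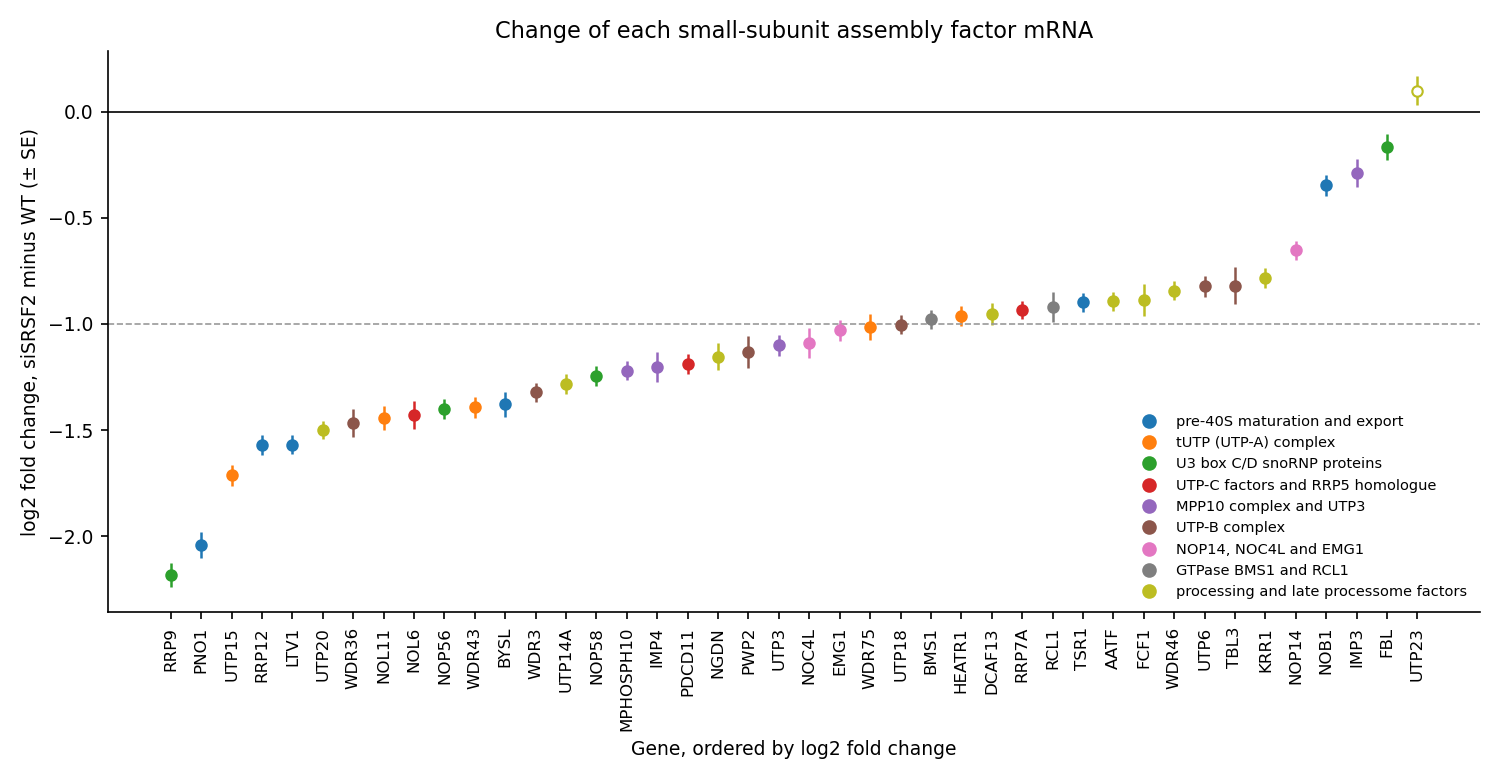
Log2 fold change of each member (siSRSF2 minus WT, points) with its SE (bars), ordered by size and coloured by complex or stage; filled points passed the test, the open point did not, and the dashed line marks a 2-fold fall. RRP9 (-2.18) and PNO1 (-2.04) lie lowest, and NOB1, IMP3, FBL and UTP23 stand above the rest.

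The MPP10 complex joins IMP3 and IMP4, which help U3 to pair with the precursor, to the scaffold protein MPHOSPH10, and UTP3 (also called SAS10) binds nearby. MPHOSPH10 fell from 337, 330.1 and 322 CPM to 148, 139 and 138 CPM (log2 fold change -1.22 with an SE of 0.045, adjusted p = 5.86e-18 in edgeR), IMP4 fell by 1.2 and UTP3 fell by 1.10 on the log2 scale. IMP3 changed less, from 27.7, 28.4 and 27.5 to 21.8, 23.2 and 23.4 CPM (log2 fold change -0.29, edgeR adjusted p = 0.000345; 0.257 when tested against a change of 1.2-fold). The siSRSF2 libraries of IMP3 still lay below all WT libraries. Other annotated genes, all on the opposite strand, share 59.3% of IMP3 exon bases. Of these, SNX33 rose (log2 fold change 1.53), whereas CTD-2026K11.4 (-0.55) and CTD-2026K11.2 (-0.74) fell.

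BMS1, the GTPase of the processome, and its partner RCL1 both fell. BMS1 measured 623, 578 and 600.1 CPM in WT and 314, 298 and 301 CPM in siSRSF2 libraries (log2 fold change -0.98, SE 0.045), and RCL1 measured 26.8, 28.7 and 29.4 against 13.7, 15.4 and 15.6 CPM (-0.92, SE 0.072). The values of this pair differed by less than the SE of RCL1. Of NOP14, its partner NOC4L and the rRNA methyltransferase EMG1, NOC4L fell from 31.7, 32 and 32.2 to 13.4, 16 and 15.4 CPM (-1.09) and EMG1 fell by 1.03 on the log2 scale. NOP14 fell less, from 564, 546 and 580.5 to 373, 353 and 349 CPM (log2 fold change -0.65 with an SE of 0.044, adjusted p = 1.1e-12 in edgeR). It shares 17.1% of its exon bases with the antisense transcript NOP14-AS1 (-0.55), and EMG1 shares 66.5% of its exon bases, mostly with LPCAT3 (-0.55).

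NOL6 and RRP7A, homologues of subunits of the yeast UTP-C complex, and PDCD11, the homologue of the RNA-binding protein Rrp5, also fell. NOL6 measured 97.9, 97.4 and 103 CPM in WT and 34.8, 33.8 and 42.3 CPM in siSRSF2 libraries (log2 fold change -1.43, SE 0.067). PDCD11 fell by 1.19 on the log2 scale. RRP7A fell from 194, 190.3 and 196 to 100.2, 101 and 102 CPM (-0.93), with the 3 replicates of each group close together.

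Of 9 further processome factors, 8 fell. UTP20, a very large helical-repeat protein that binds late, measured 596, 608 and 629 CPM in WT and 212, 219 and 217 CPM in siSRSF2 libraries (log2 fold change -1.5 with an SE of 0.044, adjusted p = 5.83e-20 in edgeR). UTP14A, the activator of the helicase DHX37, fell by 1.28 and NGDN fell by 1.15 on the log2 scale. DCAF13 (-0.95), AATF (-0.89), the endonuclease FCF1 (-0.89), WDR46 (-0.84) and KRR1 (-0.78) fell between 1.72-fold and 1.94-fold. AATF and NGDN encode partners in 1 small complex, and their falls were 1.86-fold and 2.22-fold.

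UTP23, a relative of FCF1 that helps to release the snoRNA snR30/U17, was the member that did not pass. It measured 91.6, 81.8 and 80.1 CPM in WT and 101, 83.9 and 86.8 CPM in siSRSF2 libraries, with overlapping groups (log2 fold change 0.1, SE 0.067, edgeR adjusted p = 0.223). Scaling by library totals gave a rise (log2 fold change 0.23, edgeR adjusted p = 0.00238). UTP23 shares 12% of its exon bases with RAD21 and EIF3H on the opposite strand. RAD21 had 153911 counts in all, against 20893 for UTP23, and rose (log2 fold change 0.48), and EIF3H had a log2 fold change of 0.04 (edgeR adjusted p = 0.551).

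The factors that stay with the pre-40S particle had the largest median fall of the 9 role groups, -1.47 on the log2 scale, and all 6 were lower. PNO1, which shields the end of 18S rRNA until NOB1 cuts it, measured 66.2, 64.5 and 62.3 CPM in WT and 15.2, 16.2 and 15.4 CPM in siSRSF2 libraries, a 4.12-fold fall (log2 fold change -2.04 with an SE of 0.060, adjusted p = 6.29e-20 in edgeR). Only 113 tested genes (0.477%) were called lower with a larger fall. RRP12, needed for export of the pre-40S particle, measured 234, 228 and 242 against 80.4, 80.00 and 76.6 CPM (-1.57, SE 0.046). LTV1, an export adaptor whose release lets the beak of the subunit form, measured 290.4, 283 and 281 against 100.3, 92.2 and 95.7 CPM (-1.57, SE 0.046). LTV1 shares 34.8% of its exon bases with 2 other annotated entries on the same strand, RP3-468K18.7 (-1.55) and RP3-468K18.5 (-1.47). Its value may therefore not be separate from theirs. BYSL, the homologue of yeast Enp1, fell from 53.6, 56.1 and 56.8 to 20.5, 22.1 and 21.3 CPM (-1.38).

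TSR1, a GTPase-like protein that blocks early joining of initiation factors, fell by 0.90 on the log2 scale. NOB1 fell least in this group, from 84.9, 86.2 and 86.9 CPM to 71.4, 67.7 and 63.9 CPM (log2 fold change -0.35 with an SE of 0.050, adjusted p = 1.14e-06 in edgeR), without overlap between the groups. PNO1 and NOB1 act at the same cleavage, and per kilobase NOB1 stood at 1.62, 1.69 and 1.76 times PNO1 in WT libraries and at 5.93, 5.27 and 5.25 times in siSRSF2 libraries, a pair again chosen as the extremes of its group. NOB1 shares 20.2% of its exon bases with CTD-2033A16.3 on the opposite strand (0.07, edgeR adjusted p = 0.625).

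Sharing of exon bases with other annotated genes was common, and whether reads were counted by strand was not given in the labels or files. No base was shared in 18 members, which were lower in 18 of 18 cases with a median log2 fold change of -1.14. The other 24 were lower in 23 cases, with a median of -0.97. The shares called lower were 29.0% over all tested genes and 54.1% in the members' expression range. Of the 4 least changed members, UTP23, IMP3 and NOB1 share exon bases and FBL shares none. Across the 42 members, the log2 fold change had a Pearson r of 0.276 (Spearman rho 0.259) with the percent of exon bases shared, -0.105 (-0.141) with the log2 WT CPM and -0.0034 (-0.0226) with the log2 exon length, points that come from the same libraries.

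Levels per exon length allow the members to be ranked against each other, with the reservation that the table's exon length joins all annotated isoforms. WDR43 (177 ± 6.86 CPM per kilobase), NOP14 (159 ± 4.84) and LTV1 (154 ± 2.7) led in WT cells, and NOP14 and LTV1 overlapped in range. TSR1 (116 ± 0.869), AATF (102 ± 4.2) and FBL (98.2 ± 1.24) followed, the last 2 overlapping. TBL3 (3.13 ± 0.154), PWP2 (3.8 ± 0.185) and FCF1 (5.3 ± 0.261) were lowest. In siSRSF2 cells NOP14 (101 ± 3.57 CPM per kilobase) and FBL (87.6 ± 9.84) led, followed by WDR43 (67.3 ± 4.17). RRP9 went from rank 10 to rank 21 of 42, and NOB1 from rank 19 to rank 10.

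**Figure D3:**
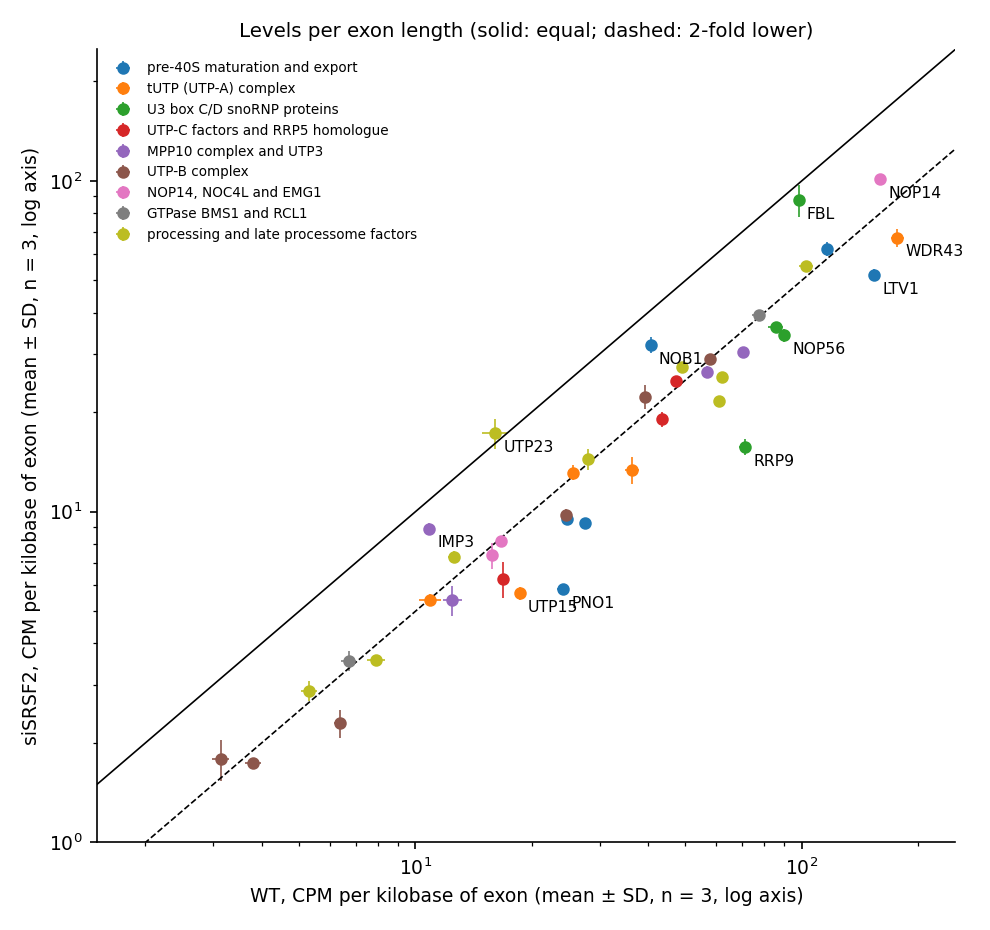
Mean level per kilobase of exon in siSRSF2 (vertical) against WT (horizontal), both log axes, with SD over 3 libraries as bars and colours for complex or stage; the solid line marks equal levels and the dashed line a 2-fold fall. Members lie on both sides of the dashed line over the whole range of levels, with 25 of 42 below it. RRP9, PNO1 and UTP15 lie furthest below it, and FBL, UTP23, IMP3 and NOB1 lie nearest the solid line.

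Other genes of small-subunit assembly moved in the same direction. Of 38 further genes, 35 were lower and 2 higher, with a median log2 fold change of -0.92. Over all tested genes 29.0% were lower and 30.1% higher, and in the members' expression range 54.1% and 27.9%. DNTTIP2 fell from 440.5 ± 4.08 to 155 ± 7.25 CPM, the helicase gene DHX37 from 196 ± 7.37 to 77.1 ± 0.364 CPM, NOL10 from 268 ± 4.34 to 117 ± 3.66 CPM and NOL7 from 366 ± 8.43 to 174 ± 8.45 CPM. RIOK3, an atypical kinase with roles outside the nucleolus, rose 1.52-fold (edgeR adjusted p = 8.98e-10), and CSNK1E, a casein kinase that also acts in other pathways, rose 1.37-fold. WBSCR22 (also BUD23), an 18S rRNA methyltransferase, did not pass (log2 fold change -0.08, edgeR adjusted p = 0.164). POLR1A, the largest subunit of RNA polymerase I, fell from 196 ± 4.34 to 94.5 ± 4.05 CPM.

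Assembly factors of the large subunit fell for 56 of 59 genes and rose for 2, with a median log2 fold change of -1.0. The shares called lower were 29.0% over all tested genes and 54.1% in the members' expression range, and those called higher 30.1% and 27.9%. RRS1 fell 3.55-fold, NIP7 3.39-fold, EBNA1BP2 3.07-fold and the rRNA methyltransferase NOP2 2.77-fold. GLTSCR2 (also NOP53) rose 1.51-fold and EFL1, the GTPase that frees eIF6, 1.16-fold, the latter losing its call against a change of 1.2-fold (edgeR adjusted p = 0.697). PELP1 did not pass (-0.37, edgeR adjusted p = 0.131). The difference between these genes and the small-subunit factors was not tested.

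Factors that assemble box C/D snoRNPs, the class of particle to which U3 belongs, fell for 6 of 8 genes and rose for 1 (median log2 fold change -0.77). Beside this short list, 29.0% of all tested genes were lower and 30.1% higher, and 54.1% and 27.9% in the members' expression range. NUFIP1, the platform of this pathway, fell 2.55-fold, RPAP3 2.05-fold and the ATPase RUVBL1 1.79-fold. C12orf45 (also NOPCHAP1), a chaperone of NOP58, fell 1.63-fold. PIH1D1, of the R2TP complex, rose 1.3-fold (edgeR adjusted p = 2.4e-05), and ZNHIT3 did not pass (-0.10, edgeR adjusted p = 0.383).

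Of 33 genes of 40S ribosomal proteins, which the machinery assembles, 12 were lower, 4 higher and 17 did not pass. Over all tested genes 29.0% were lower and 30.1% higher. In the members' expression range, above which some of these genes lie, 54.1% were lower and 27.9% higher. The median log2 fold change of the 33 genes was -0.10, and none fell more than 2-fold. The difference between these genes and the assembly factors was not tested. Their sum was 11722 ± 212 CPM in WT and 11243 ± 157 CPM in siSRSF2 libraries (SD, n = 3 per group). RPS26 fell from 46.4 ± 4.5 to 24.4 ± 0.607 CPM, RPS13 from 29.96 ± 0.97 to 19.98 ± 2.01 CPM, FAU from 525 ± 36.9 to 404 ± 14 CPM and RPS15 from 197 ± 7.3 to 163 ± 7.36 CPM. RPS18 (1.13-fold), RPS2 (1.11-fold), RPS15A (1.11-fold) and RPS3A (1.09-fold) were called higher. These counts were unsteady: 20 genes were lower without siSRSF2 replicate 3, 1 was higher without WT replicate 1, and with library totals as the scaling 7 were higher and 6 lower. Leaving out a library ended the calls of RPS2 (WT replicate 1), RPS15A (siSRSF2 replicate 3 or WT replicate 1) and RPS3A (siSRSF2 replicate 3, WT replicate 1 or WT replicate 2), while RPS18 passed with each library left out. Many ribosomal protein genes have processed pseudogenes, and the division of reads among them was not given in the labels or files.

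**Figure D4:**
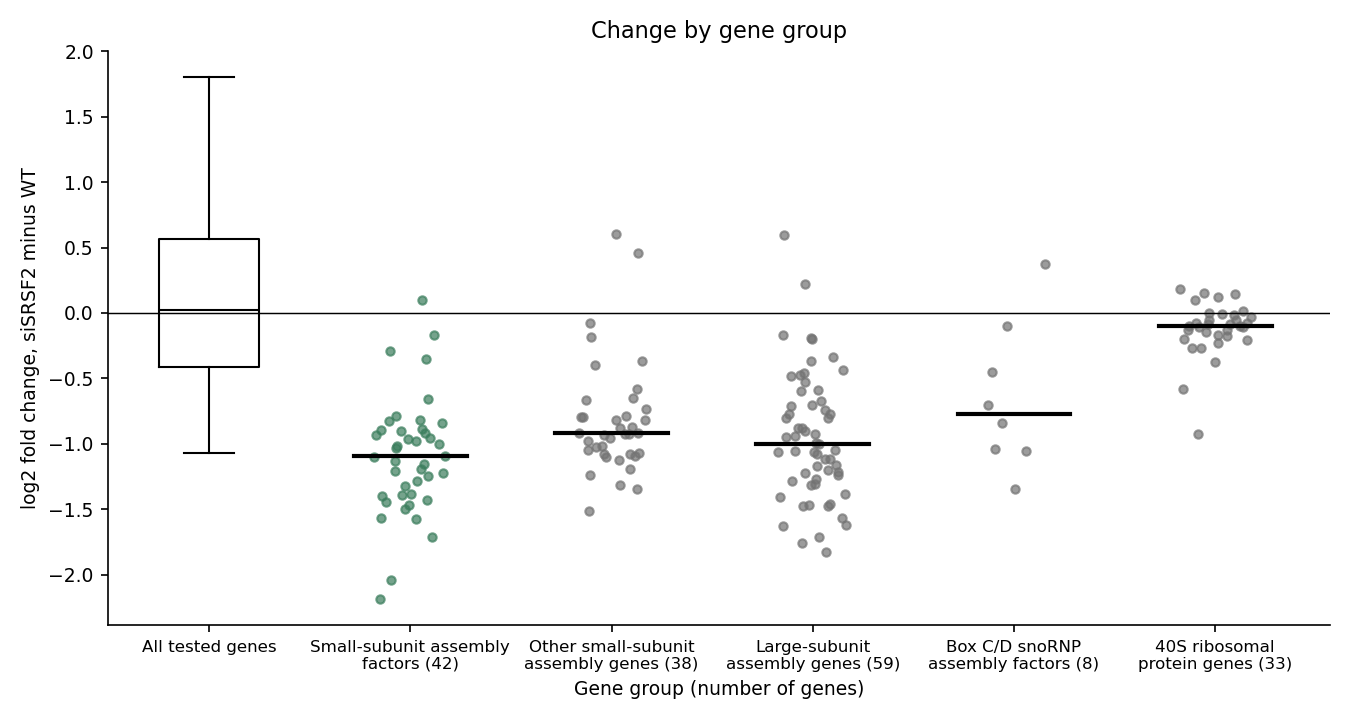
Log2 fold change (siSRSF2 minus WT) by gene group, 1 point per gene with the group's median as a bar; the box for all tested genes shows its quartiles and median, with whiskers at the 5th and 95th percentiles. The medians of the 42 small-subunit assembly factors (-1.10) and the large-subunit factors (-1.0) lie below that of the 40S ribosomal protein genes (-0.10).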

How the data were processed

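Per the labels' protocols, total RNA isolated with TRI Reagent entered SMARTER mRNA-Seq library construction. The deposited values are raw counts for each gene name, made with HISAT2 2.0.5 and featureCounts 1.5.0-p3 per the submitters' processing notes, which name the mouse build mm10. The deposited table holds human gene names and positions: 40 of 42 members had exactly the span of GENCODE v29 (GRCh38), all but PDCD11 and EMG1. Exon length, another deposited value, comes from the same table per the file headers.

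The members and all gene lists were chosen with earlier results of these data known. Counts were fitted in edgeR 4.0.16 (R 4.3.3; quasi-likelihood test, robust, group as the only term, TMM scaling, filterByExpr with minimum count 10, 23689 genes kept with 99.9% of counts). Reads carry no molecular identifiers, so floors of 3 counts cover counting error only. CPM uses TMM-scaled library sizes unless said otherwise, and the SE is the absolute log2 fold change over the square root of F. Replicates were not duplicates of each other (chi-square per gene 3.83 to 8.75). The pipeline was tested on simulated data. Values in every library were given for the 12 most changed members, the members that did not pass and the extremes of each role group; other lists name up to 4 genes of smallest p and those called against the list's direction. The promoter rule took the 2 most changed members; the 5 further E-box windows were added after the data were seen. Alternatives used limma 3.58.1 (voom), DESeq2 1.42.0, RLE factors, library totals, other filters, a replicate block, a test against 1.2-fold and each library left out.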

Additional observations from a re-analysis of the deposited data

How the results depend on the processing

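Of the 42 members, 39 kept their direction and call under all 14 alternatives, and IMP3, FBL and UTP23 did not in at least 1, as given beside them; no member changed sign. The count of lower members ran from 39 (test against 1.2-fold) to 41, and from 40 to 41 with a library left out. With scaling by library totals 1 member, UTP23, was called higher. That scaling moved the median of all genes from 0.02 to 0.15 and the members' median to -0.96, which left the members 1.11 below all genes as before. The members' median was -1.17 with no filter and -1.04 when only genes averaging 1 CPM or more were fitted. Without mitochondrially encoded genes the members' share of counts was 0.891% in WT and 0.461% in siSRSF2 libraries. All genes called split into 8560 higher and 5492 lower with library totals, against 7129 and 6862. Large-subunit genes called higher fell to 1 against a change of 1.2-fold. Of 40S ribosomal protein genes, the number higher was 7 with library totals, 0 with no filter, 0 against 1.2-fold and 2 with DESeq2, and the number lower was 6, 22 and 3 with the first 3 of these. With a library left out, 1 to 4 were higher and 10 to 20 lower. The cause was not tested. With the replicate number as a block, 41 members were lower and the members' median was -1.10. Same-numbered libraries did not deviate together (correlations 0.0133, -0.0472 and -0.0457). With 3 libraries per group this cannot show whether same-numbered libraries were prepared together, and the labels state no pairing. Depth set little limit on the members, which had at least 319 counts in every library.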

Other observations

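Small nucleolar RNAs are cut from introns of some of these genes, and the table lists 5 of them inside NOP56. SNORD86 fell (log2 fold change -1.85, SE 0.116, edgeR adjusted p = 2.35e-13), as did SNORA51 (-0.97) and SNORD56 (-0.84), whereas SNORD57 (-0.46, edgeR adjusted p = 0.0584) and SNORD110 (-0.70, edgeR adjusted p = 0.143) did not pass. Their bases also belong to annotated NOP56 exons, so NOP56 RNA that keeps these bases cannot be told from mature snoRNA. These entries were chosen after their values were seen.

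Near copies of 2 members took a larger share beside their parent genes in siSRSF2 libraries, with no overlap between the groups and no test of the difference. UTP14C, an intronless copy of UTP14A, had a log2 fold change of -0.65 (SE 0.053, edgeR adjusted p = 3.98e-11) against -1.28 for UTP14A, and its counts were 26.7% to 28.05% of those of UTP14A in WT and 41.7% to 43.4% in siSRSF2 libraries. The 19 entries named as BMS1 pseudogenes together held 15.9% to 16.9% of the counts of BMS1 in WT and 27.3% to 28.7% in siSRSF2 libraries. These 2 cases were picked from copies of several members, and other copies, with far fewer counts, were mixed. The values that follow are raw counts, not scaled for the lower totals of the siSRSF2 libraries. DCAF13P3 had 109, 134 and 130 in WT and 73, 90 and 113 in siSRSF2 libraries, which does not by itself show a fall. DCAF13 had 11857, 11770 and 12569 against 3523, 4805 and 4987. FCF1P2 had 63, 76 and 66 counts in WT and 11, 25 and 15 in siSRSF2 libraries. FCF1 had 1234, 1183 and 1127 against 396, 489 and 475. The labels and files did not state how reads were divided between copies.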
